A study of Mus musculus with 6 samples.

Results

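The core genes of planar cell polarity were examined in tissue of Pax6-/- embryos, set against wild type embryos. The members were the probes whose platform gene symbol was Vangl1, Vangl2, Celsr1, Celsr2, Celsr3, Prickle1, Prickle2, Dvl1, Dvl2 or Scrib: 19 of the 45281 probes on the array, which represented 9 of the 10 genes, and of 19057 genes with a symbol in all. No probe carried the symbol Vangl1 in the annotation used, so Vangl1 was not analysed here. Of the 19 probes, 10 passed the filter on dim probes (detection p under 0.05 on at least 3 of the 6 arrays) and measured 7 genes.

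The Pax6-/- group was surface ectoderm from Pax6-/- embryos, the tissue in the place of the lens placode, set against the lens placode, the thickened ectoderm over the optic vesicle, of wild type embryos. Embryos of both groups were taken at embryonic day 9.5 from a mixed FVB and 129 background, and Pax6, a transcription factor of eye development, was the gene that differed by label. The sources used here do not name the allele. Tissue was cut by laser from frozen sections of 10 µm. RNA of 3 embryos was pooled per genotype, per the labels, and amplified in 3 samples to about 6 µg of cDNA, each read on 1 Illumina bead array, so p-values measure the spread between these samples, which may be technical.

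Planar cell polarity aligns cells within the plane of an epithelium. In its core, as worked out first in Drosophila, the cadherin-type receptors Celsr link neighbouring cells, Vangl and Prickle proteins gather on one face of a cell, and Frizzled receptors with Dishevelled (Dvl) proteins on the opposite face. In mouse embryos the module is known for neural tube closure, for the orientation of inner ear hair cells and for the movements that narrow and lengthen tissues.

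All 6 arrays read Pax6, and both of its probes lay lower on the 3 Pax6-/- arrays (9.95 to 10.79 on the log2 scale) than on the 3 wild type arrays (10.84 to 11.21 on the same scale). The place of the probes relative to the change in the allele is unknown, so this does not check the labels. Pax6-/- replicate 2 stood apart: 17276 probes were detected on it and its correlation with the other arrays was 0.80 to 0.82, against 21062 to 22712 probes and 0.88 to 0.96 among the other 5 arrays. The differences of the kept member probes and of the pathway genes named by rule are therefore given with and without it. All 10 surface ectoderm markers were detected on every array. Of the 10 lens placode markers 8 were kept. Pitx3 passed the filter only through wild type, where it was high, and the other 7 had negative differences; Cryaa was detected on no array and Foxe3 on 1 wild type array.

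Bases upstream of the annotated start are shown for Prickle1, Vangl2 and Celsr2, the 3 members with the largest positive differences on their brightest probes. They are the 250 bases before the start, taken from the RefSeq promoter table of GRCm38.p6 and written 5′ to 3′ on the gene's strand. For Prickle1, which has 2 start sites in the table, the one farther upstream is shown. Capitals mark any match, on either strand, to GGGCGG (the GC box), TTCACGC (the core of the Pax6 paired domain site) or ATCAAAG (a TCF/LEF site).
Prickle1, chr15:93595903-93596152, minus strand: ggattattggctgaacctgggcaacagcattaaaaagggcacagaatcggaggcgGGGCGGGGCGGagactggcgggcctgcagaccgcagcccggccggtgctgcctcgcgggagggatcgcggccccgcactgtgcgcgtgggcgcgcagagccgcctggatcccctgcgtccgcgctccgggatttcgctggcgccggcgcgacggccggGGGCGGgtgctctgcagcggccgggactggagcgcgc
Vangl2, chr1:172027296-172027545, minus strand: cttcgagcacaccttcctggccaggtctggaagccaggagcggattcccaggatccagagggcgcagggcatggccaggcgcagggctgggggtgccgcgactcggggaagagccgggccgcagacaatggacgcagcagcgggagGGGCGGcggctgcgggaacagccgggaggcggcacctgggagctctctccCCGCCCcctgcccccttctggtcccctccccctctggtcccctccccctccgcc
Celsr2, chr3:108415580-108415829, minus strand: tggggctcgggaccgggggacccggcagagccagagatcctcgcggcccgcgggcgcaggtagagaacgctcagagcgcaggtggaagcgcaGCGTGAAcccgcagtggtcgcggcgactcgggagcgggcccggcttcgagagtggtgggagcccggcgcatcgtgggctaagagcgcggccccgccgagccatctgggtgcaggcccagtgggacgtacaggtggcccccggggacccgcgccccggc
Prickle1 held 3 GC boxes, a pair of which overlap, and Vangl2 held 2. Celsr2 held none and had 1 match to the Pax6 core, read on the reverse strand as GCGTGAA. Of all 32851 upstream windows of that length, 32.7% held the GC box, 1.03% the Pax6 core and 3.21% the TCF/LEF letters. The windows shown were rich in G and C, at 74.0%, 73.6% and 75.2% in that order, against a median of 52.4% over all windows. In all, 7 members had 11 windows in the table; the Pax6 core was in the Celsr2 window alone, and the TCF/LEF letters in 1 of 4 Prickle2 windows. Celsr1, Scrib and Vangl1 had no entry. A match of letters is a description and shows no binding.

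No member probe passed the test over all probes. Limma called 0 of the 10 kept member probes at an adjusted p under 0.05, where 0.00910% of the 21971 kept probes were called, and the smallest adjusted p among members was 0.277. At an unadjusted p under 0.05 there were 2 of 10 member probes, or 20.0%, against 9.26% of all kept probes. Of the 7 genes, each read by its brightest kept probe, 4 had positive and 3 negative differences (Pax6-/- minus wild type, log2). Their median was 0.48, and that of all 10967 measured genes was -0.07. With all kept probes of a gene averaged, the member median was -0.12. Positive differences made up 44.5% of all measured genes. In 2 of the 7 genes, or 28.6%, every Pax6-/- array lay above every wild type array, and in 0 every one lay below. Over all measured genes 7.21% lay above and 10.3% below, together 17.5%. The 2 genes were Prickle1 and Vangl2, so the share rests on few members. By probe, 4 of the 10 kept had positive and 6 negative differences. The genotypes did not overlap in 3 of the 10, or 30%, against 17.3% of all kept probes. Besides those of Prickle1 and Vangl2 this was a Scrib probe, which was lower in Pax6-/-.

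**Figure D1:**
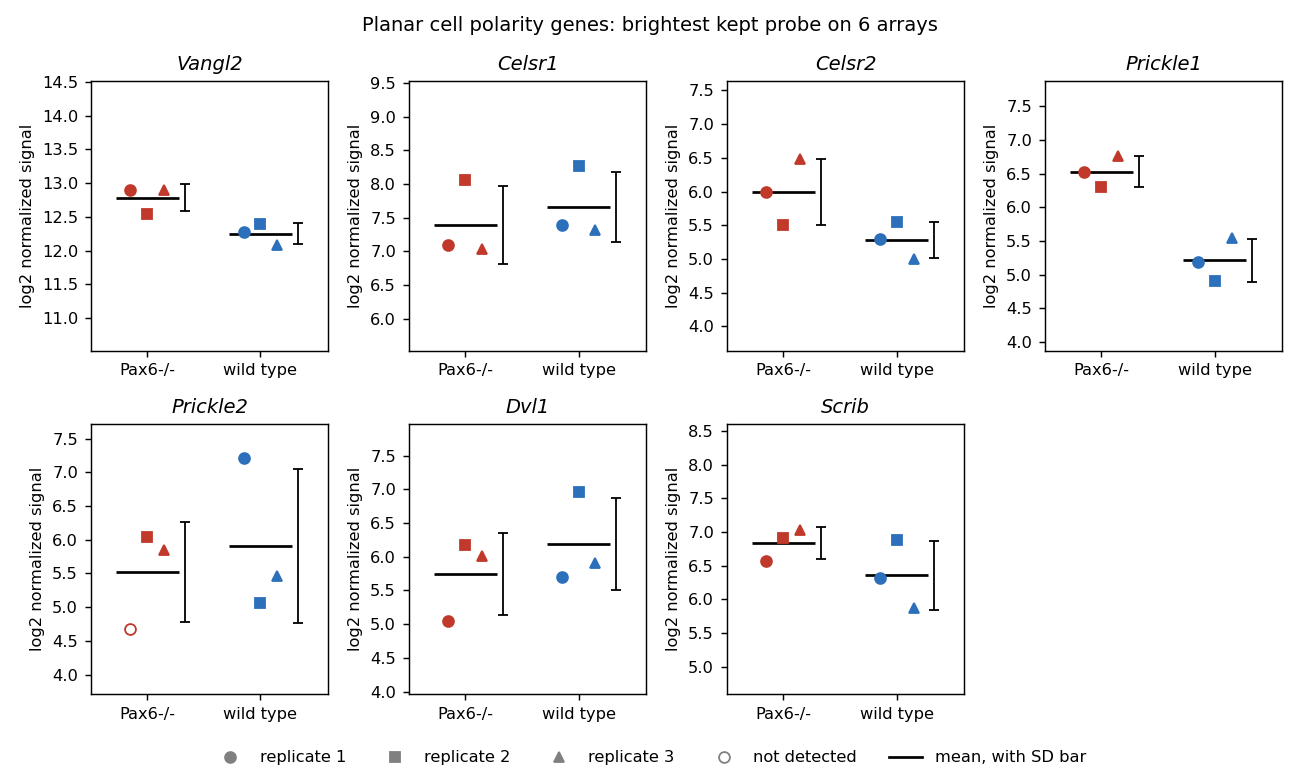
Normalized log2 signal of the brightest kept probe of 7 genes on each array, with Pax6-/- (red) left of wild type (blue). Symbols stand for replicates, lines for means, bars for SD (n = 3) and open symbols for arrays where the probe was not detected; each panel spans 4 log2 units around its own mean. Prickle1 and Vangl2 do not overlap between genotypes, and the other 5 genes do.

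Prickle1, a cytoplasmic protein with LIM domains that binds Vangl2, had the largest difference of the members. Its kept probe read 6.52, 6.30 and 6.76 on the log2 scale in Pax6-/- replicates 1 to 3, against 5.19, 4.91 and 5.54 in wild type replicates 1 to 3. Every Pax6-/- array lay above every wild type array, and the probe was detected on all 6. The means were 6.53 ± 0.23 in Pax6-/- and 5.21 ± 0.32 in wild type (SD, n = 3 each). The log2 difference was 1.31 (SE 0.29, 95% confidence interval 0.63 to 2.00), or 2.49-fold higher, and it did not pass limma's test over all probes (adjusted p = 0.277, unadjusted p = 0.00266). By p this probe ranked 210 of 21971, within the first 0.956%. The difference was 1.22 on slide 1 and 1.53 on slide 2, and 1.43 without Pax6-/- replicate 2.

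The Prickle1 probe was dim, and its fold depended on the background step. In scanner signal before correction it read 149, 87.2 and 151 in Pax6-/- and 79.8, 66.9 and 86.5 in wild type. Pax6-/- replicate 2, from the array with the lowest mean signal, thus lay close to wild type replicate 3 before normalization, with a bead standard error of 4.59% of the signal. Without background correction the log2 difference was 0.81, and on the authors' processed values 1.73. With normexp at an offset of 50, against 16 in the main fit, it was 0.75. Prickle1 was higher without overlap in each. The other Prickle1 probe read 4.67, 4.54 and 4.89 in Pax6-/- and 4.66, 4.61 and 4.57 in wild type on the log2 scale. It was detected on Pax6-/- replicate 3 alone and was left out of the test.

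Prickle2, the paralogue of Prickle1, varied more within each genotype than between them. On its kept probe Pax6-/- replicates 1 to 3 read 4.67 (not detected), 6.04 and 5.85 on the log2 scale, and wild type replicates 1 to 3 read 7.21, 5.06 and 5.46. The difference was -0.39 (SE 0.64, 95% confidence interval -1.90 to 1.13, adjusted p = 0.861 by limma). It was -0.65 without Pax6-/- replicate 2, and its sign rested on single arrays: it was 0.04 without Pax6-/- replicate 1 and 0.26 without wild type replicate 1. Within slide 1 the difference was -1.85 and within slide 2 it was 0.59. The annotation lists no accession for this probe. The other 2 Prickle2 probes, annotated to the RefSeq transcript of the gene, were detected on no array.

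Vangl2, the membrane protein mutated in the loop-tail mouse, was read by a bright probe and a dim one. The bright probe gave 12.90, 12.55 and 12.90 in Pax6-/- and 12.27, 12.39 and 12.08 in wild type on the log2 scale. All Pax6-/- values lay above all wild type values. The difference was 0.53 (SE 0.26, 95% confidence interval -0.08 to 1.14), or 1.45-fold, and did not pass (adjusted p = 0.580 by limma). It was 0.65 without Pax6-/- replicate 2, 0.45 on slide 1 and 0.66 on slide 2.

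The separation of the genotypes for Vangl2 was lost under 1 other normalization. In scanner signal the bright probe read 7266, 4521 and 7020 in Pax6-/- and 5358, 6242 and 4845 in wild type, so Pax6-/- replicate 2 was the lowest of all before normalization. With median scaling in place of quantile normalization the genotypes overlapped and the difference was 0.25. That scaling also moved the median of all genes, to -0.20, and relative to the median of all genes Vangl2 was at 0.45 under it and 0.60 under quantile normalization. The dim Vangl2 probe overlapped between genotypes, at 4.66 to 5.99 in Pax6-/- and 5.02 to 5.79 in wild type, with a difference of -0.08 (SE 0.42), or -0.46 without Pax6-/- replicate 2. Its values lay near the detection limit, and it was not detected on Pax6-/- replicate 1.

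The Celsr genes encode large cadherin-type receptors that join polarity across cell borders. Celsr1, the member best known from epithelia such as skin, read 7.09, 8.06 and 7.03 in Pax6-/- and 7.40, 8.26 and 7.32 in wild type on the log2 scale. The genotypes overlapped, and replicate 2 was the highest of each. The difference was -0.27 (SE 0.41, 95% confidence interval -1.24 to 0.71, adjusted p = 0.852 by limma). It was -0.60 without Pax6-/- replicate 2, where the genotypes no longer overlapped, and 0.04 without wild type replicate 2. Leaving out an array can only remove overlap. Within slides it was 0.18 and -0.76, each a single array of one genotype against a pair of the other.

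Celsr2 had the largest positive difference after Prickle1. It read 6.00, 5.50 and 6.48 in Pax6-/- and 5.30, 5.54 and 5.003 in wild type on the log2 scale. The genotypes overlapped through Pax6-/- replicate 2 and wild type replicate 2 alone, and without either array they did not, though fewer arrays can only remove overlap. The difference was 0.71 (SE 0.34, 95% confidence interval -0.09 to 1.51), or 1.64-fold, and did not pass (adjusted p = 0.577 by limma). It was 0.96 without Pax6-/- replicate 2, 0.47 without Pax6-/- replicate 3, 0.45 within slide 1 and 1.21 within slide 2. The probe was dim, and the difference was 0.39 with normexp at an offset of 50, 0.42 without background correction and 0.97 on the authors' processed values. The other Celsr2 probe, annotated to a different transcript accession, was detected on wild type replicate 2 alone.

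Celsr3, known chiefly for axon guidance in the nervous system, was not measured by the filter used. Each of its 2 probes was detected on 1 wild type array and on no Pax6-/- array. The brighter one read 4.68 to 4.77 in Pax6-/- and 4.73, 4.78 and 5.41 in wild type on the log2 scale, with wild type replicate 3 the detected value. A fold is not given, since detection on 1 array does not set a level for the genotype.

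Dvl1 and Dvl2 encode Dishevelled proteins, which carry Frizzled signals to the cytoskeleton and to beta-catenin. The kept Dvl1 probe read 5.04, 6.18 and 6.01 in Pax6-/- and 5.70, 6.96 and 5.90 in wild type on the log2 scale. The genotypes overlapped, with the lowest value on Pax6-/- replicate 1 and the highest on wild type replicate 2. The difference was -0.44 (SE 0.46, 95% confidence interval -1.54 to 0.65, adjusted p = 0.770 by limma), and it was -0.66 without Pax6-/- replicate 2 and -0.06 without wild type replicate 2. With normexp at an offset of 50 it was -0.27, and without background correction -0.28. The other Dvl1 probe was detected on Pax6-/- replicate 3 alone. The single Dvl2 probe was detected on no array, at 4.48 to 4.63 in Pax6-/- and 4.39 to 4.62 in wild type, which says only that this probe gave no signal above background.

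Scrib, a scaffold with PDZ domains that binds Vangl2 and also sets apical and basal polarity, had probes that disagreed. Of its 4 probes 3 were kept. The brightest read 6.57, 6.92 and 7.03 in Pax6-/- and 6.32, 6.89 and 5.87 in wild type on the log2 scale, a difference of 0.48 (SE 0.34, adjusted p = 0.673 by limma). The genotypes overlapped there through wild type replicate 2, and the difference was 0.75 without this array, 0.24 without wild type replicate 3 and 0.44 without Pax6-/- replicate 2. A probe nearly as bright read 5.92, 5.57 and 6.33 in Pax6-/- and 6.74, 6.44 and 6.93 in wild type. On that probe every Pax6-/- array lay below every wild type array, and the difference was -0.76 (SE 0.31, 95% confidence interval -1.49 to -0.04, adjusted p = 0.527, unadjusted p = 0.0414). Without Pax6-/- replicate 2 it was -0.58. Both were annotated to the same RefSeq transcript.

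The remaining Scrib probes gave no direction. The one annotated to a cDNA clone was detected on 2 arrays of each genotype, with a difference of -0.07 (SE 0.42), or 0.20 without Pax6-/- replicate 2. The fourth was detected on no array. Averaging the 3 kept probes gave a Scrib difference of -0.12, opposite in sign to that of the brightest probe, so no direction is given for the gene. Disagreement of this kind was common on these arrays: where a gene had several kept probes, as 4586 genes did, their differences took opposite signs in 51.3%.

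**Figure D2:**
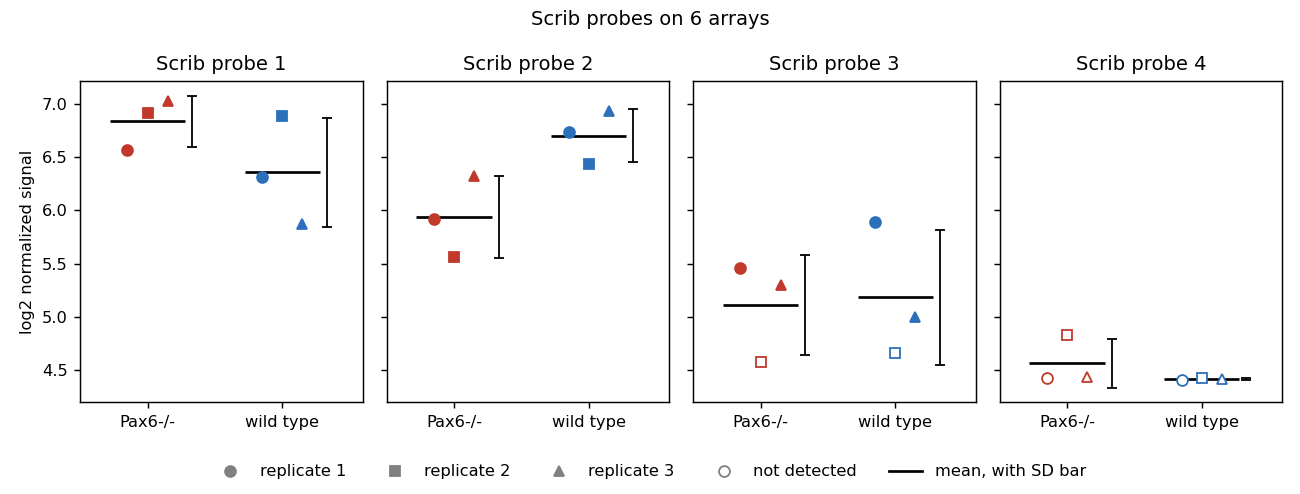
Normalized log2 signal of the 4 Scrib probes on each array, Pax6-/- left of wild type, with means and SD (n = 3); open symbols mark arrays where the probe was not detected. Probe 1 is higher in Pax6-/- with overlap, probe 2 is lower without overlap, and probes 3 and 4 are dim.

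**Figure D3:**
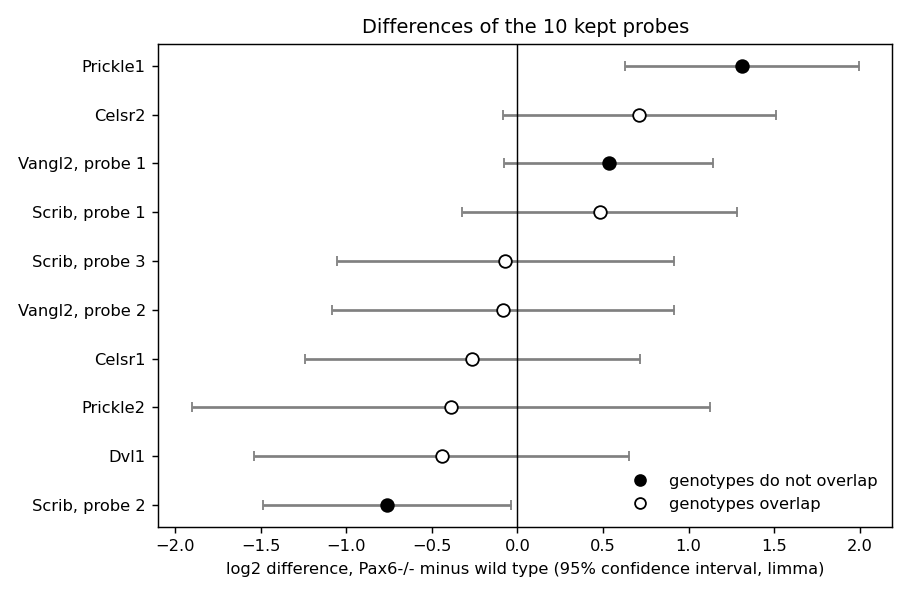
Log2 difference (Pax6-/- minus wild type) of the 10 kept probes with 95% confidence intervals from limma; filled points mark probes whose genotypes do not overlap. The interval of Prickle1, 0.63 to 2.00, and that of Scrib probe 2, -1.49 to -0.04, leave out 0 before adjustment for the number of probes; the other 8 include it.

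Error between beads was small beside the spread between arrays. Over the kept member probes a signal rested on 22 to 70 beads with a standard error of 1.91% to 5.90% of the signal (median 3.57%). After background correction, which raises the relative error of dim probes, this came to 0.028 to 0.19 log2 units (median 0.082). The median SD between arrays was 0.48 log2 units in Pax6-/- and 0.47 in wild type. The 9 probes that were not kept lay between 4.39 and 5.41 on the log2 scale, and 4 of them were detected on no array and 5 on 1 array. Of the 10 kept, 7 were detected on all 6 arrays, among them those of Prickle1, Celsr1, Celsr2, Dvl1 and the bright Vangl2 probe.

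Patterns over the 6 arrays were compared as a description. Vangl2 and Celsr2 ran most alike among the members (Pearson r = 0.94), followed by Vangl2 and Prickle1 (0.81) and Celsr1 and Dvl1 (0.79). The genotype difference enters these values, and the arrays share 2 RNA pools by the labels. Among all measured genes the closest to Prickle1 was E130308A19Rik (r = 0.998), to Vangl2 the glypican Gpc3 (0.987), to Celsr2 the sodium channel subunit Scn3b (0.987) and to Celsr1 the matrix protease Mmp14 (0.995). The closest to Dvl1 was Alg3 (0.996), to Scrib Glmn (0.994) and to Prickle2 Ift80 (0.986). With 6 arrays, 26 to 119 genes had r over 0.9 with each member.

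Marker genes of other cell types were read on the same arrays. In 3 lists 1 gene, picked out after its values were seen, was left out, and the gap in summed signal between the genotypes was lost in each. No gene was left out of the other lists, so whether their sums rest on single genes was not tested. Bright genes weigh most in such a sum. Single genes are therefore given too, where 7.21% of all measured genes were higher and 10.3% lower without overlap. The summed linear signal of the 12 optic vesicle and neural markers with a probe was 901 to 1659 on the Pax6-/- arrays and 662 to 866 on the wild type arrays. Without Pax2 the sums overlapped, at 687 to 779.5 in Pax6-/- and 591 to 833 in wild type. Of these markers 8 were kept, 5 with positive and 3 with negative differences, and only Pax2 did not overlap, higher in Pax6-/-. Six6, Sox1, Dcx and Stmn2 were detected on no array. The 11 mesenchyme and neural crest markers summed to 1681 to 1784 in Pax6-/- and 2216 to 2719 in wild type, and without Pdgfra to 1272 to 1578 in Pax6-/- and 1145 to 1699.9 in wild type. Of 9 kept, 4 had positive and 5 negative differences with a median of -0.01. Pdgfra, Foxc2 and Col6a2, 3 of the 9, were lower in Pax6-/- without overlap. Col6a2 passed only through wild type, and Sox10 was detected on no array. The 8 endothelial markers summed to 230.2 to 357 in Pax6-/- and 374 to 486 in wild type, and without Sox17 to 209 to 304 in Pax6-/- and 237 to 289.9 in wild type. Of 5 kept, 2 had positive and 3 negative differences, and the 3 negative ones, Sox17, Ramp2 and Cdh5, did not overlap. Cdh5 passed only through wild type, and Kdr was detected on no array. The 10 surface ectoderm markers summed to 9681 to 11584 in Pax6-/- and 8018 to 8961 in wild type. Of these, 8 had positive and 2 negative differences, and 3, Krt14, Tfap2b and Grhl2, were higher in Pax6-/- without overlap. Tfap2b, the brightest of them in Pax6-/-, read 11.07 to 11.86 there and 10.35 to 10.61 in wild type on the log2 scale. The 10 lens placode markers summed to 2791 to 3324 in Pax6-/- and 5230.2 to 6251 in wild type. Of 8 kept, 7 were lower in Pax6-/- without overlap, counting Pitx3, which passed only through wild type. The 5 primitive erythroid markers summed to 2904 to 13972 in Pax6-/- and 5683 to 13364 in wild type. All 4 kept had negative differences, and only Klf1, which passed only through wild type, did not overlap. The part of these cell types in the values of Prickle1, Vangl2 and the other members was not tested. In bulk tissue, fewer cells of a type and less RNA per cell cannot be told apart.

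The other genes of the pathway gave differences in both directions. Of 46 listed genes 42 had a probe and 40 were kept, 16 with positive and 24 with negative differences and a median of -0.16. Limma called 0 of them over all probes. Its unadjusted p was under 0.05 for 6 of 40, or 15%, against 9.26% of all kept probes. That last share counts probes, while the 40 are genes, each read by its brightest kept probe. In 11 of the 40, or 27.5%, the genotypes did not overlap, 5 higher and 6 lower in Pax6-/-, where 17.5% of all genes did not overlap. Leaving out Pax6-/- replicate 2 cannot create overlap, so for the 9 genes named by rule only the differences are compared without it.

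Among ligands and receptors, 12 of 13 were kept, 3 with positive and 9 with negative differences. Fzd2, a Frizzled receptor, read 6.55 to 7.68 in Pax6-/- and 7.70 to 8.33 in wild type on the log2 scale, a difference of -0.98 (SE 0.37, adjusted p = 0.502 by limma), or -1.30 without Pax6-/- replicate 2. Gpc4, a glypican that binds Wnt ligands, read 8.48 to 8.71 in Pax6-/- and 7.67 to 7.97 in wild type, a difference of 0.81 (SE 0.25, adjusted p = 0.429) with all arrays and 0.86 without Pax6-/- replicate 2, and its dimmer probe had a difference of 0.53. Ptk7, a pseudokinase receptor of polarity, was at -0.37 without overlap, and at -0.38 without Pax6-/- replicate 2. Fzd3 and Fzd6, the Frizzled receptors best known for planar polarity in the mouse, were at -0.23 and 0.21 with overlap. Wnt5a, the ligand most tied to this branch, varied from 7.11 to 9.76 in Pax6-/- and from 8.23 to 9.34 in wild type, and Wnt11 was detected on no array.

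Of the 14 cytoplasmic partners 11 were kept, 5 with positive and 6 with negative differences. Dlg1, a scaffold that works with Scrib, read 7.10 to 7.90 in Pax6-/- and 5.28 to 7.09 in wild type, a difference of 1.22 (SE 0.50, adjusted p = 0.528 by limma), or 1.38 without Pax6-/- replicate 2. The genotypes were 0.01 apart at their nearest values, 7.10 in Pax6-/- replicate 2 and 7.09 in wild type replicate 1. Dvl3, the remaining Dishevelled gene, was kept with a difference of -0.28 and overlap. Llgl1, which also belongs with Scrib, was at -0.01.

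Of 13 effectors 12 were kept, 7 with positive and 5 with negative differences. Daam1, a formin that acts on actin downstream of Dishevelled, read 8.40, 7.52 and 8.70 in Pax6-/- and 9.76, 9.40 and 9.44 in wild type on the log2 scale. The Pax6-/- arrays all lay below the wild type arrays, with a difference of -1.32 (SE 0.37, adjusted p = 0.392 by limma). It was -0.98 without Pax6-/- replicate 2. The 4 kept probes detected on all arrays had negative differences, from -1.32 to -0.63, and 2 of them did not overlap; the fifth passed the filter only through wild type. Rock1, a kinase that acts on myosin, was at 0.45 and Cdc42, a small GTPase, at -0.34, both without overlap and neither past the test. Without Pax6-/- replicate 2 they were at 0.54 and -0.26. One of 3 kept Cdc42 probes had a positive difference, at 0.08.

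The Fat and Dachsous module, a set of giant cadherins that orient tissues beside the core, had 5 of 6 genes kept, 4 with negative differences. Fat4 read 5.38, 4.63 and 6.00 in Pax6-/- and 7.91, 7.33 and 7.81 in wild type on the log2 scale, with all Pax6-/- values below all wild type values. The difference was -2.35 (SE 0.40) and did not pass (adjusted p = 0.191 by limma), and the probe was detected on 2 of the 3 Pax6-/- arrays. It was -1.997 without Pax6-/- replicate 2. Fat1 read 9.86 to 10.27 in Pax6-/- and 10.66 to 11.03 in wild type, a difference of -0.85 (SE 0.27, adjusted p = 0.432) with all arrays and -0.78 without Pax6-/- replicate 2, and its 3 kept probes were all negative, from -1.07 to -0.57. Dchs1, the partner of Fat4, was at -0.37 with overlap, and Fjx1, related to a Drosophila kinase that modifies Fat and Dachsous, at 0.85 with overlap.

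**Figure D4:**
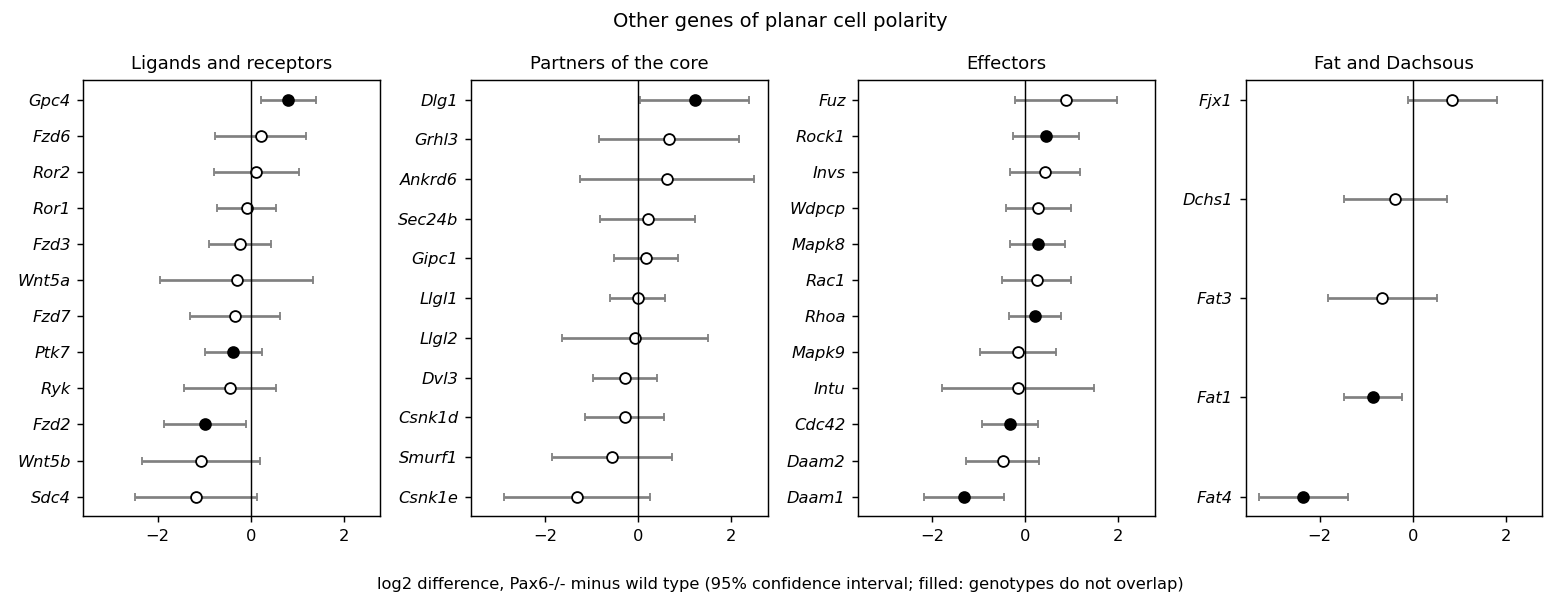
Log2 difference (Pax6-/- minus wild type) of 40 other genes of planar cell polarity in 4 panels by role, with 95% confidence intervals from limma; filled points mark genes whose genotypes do not overlap. Fat4, at -2.35, and Daam1, at -1.32, lie farthest to the left among the filled points, and Dlg1, at 1.22, farthest to the right.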

How the data were processed

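Per the file headers, the table of probes that the authors deposited lists for every array a signal, read here as an intensity on a linear scale, with a detection p-value, the number of beads and other bead columns (the standard error). The submitters' processing notes name GenomeStudio without a version. The authors' processed intensity values, linear with some below 0, served as an alternative; the sources used here do not state how they were made.

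Groups and replicate numbers came from the titles and slides from the chip numbers. Pax6-/- replicates 1 and 2 and wild type replicate 1 shared slide 1, and the other 3 arrays slide 2. Signals were corrected with limma's neqc (limma 3.58.1, R 4.3.3, offset 16, quantile normalization, log2), which takes background from the detection p-values. The offset shrinks the differences of dim probes. They were still larger than without background correction, as for Prickle1 (1.31 against 0.81). Probes with detection p under 0.05 on at least 3 of 6 arrays were kept (21971 of 45281), and genotype was fitted with lmFit and eBayes, with Benjamini-Hochberg adjustment over all kept probes. The fit was tested on simulated data. The brightest kept probe (highest mean over the arrays) stood for a gene. Symbols came from the platform annotation, where 34807 of the 34885 probes with 1 symbol matched an Entrez id of GRCm38.p6 and none changed. Figures were drawn with matplotlib 3.10.9.

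Members and lists were chosen with earlier results of these data known. All members were named, and of the other pathway genes, per role, called genes and up to 3 with the largest difference without overlap; Fzd3, Fzd6, Wnt5a, Wnt11, Dvl3, Llgl1, Dchs1 and Fjx1 were added after their values were seen. Same-numbered replicates deviated from their group means with correlations of 0.02 to 0.06, and differently numbered ones with correlations of -0.06 to 0.03. The same-numbered values were all positive but small, so the numbers were not read as pairs in the main fit.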

Additional observations from a re-analysis of the deposited data

How the results depend on the processing

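No member probe was called in any of the 16 alternative fits over all probes, and no pathway gene either. Of 118 refitted differences of the 7 genes, 32 equal the original by construction. Another filter or prior and the replicate block leave the estimate as it is, and so does averaging for a gene with a single kept probe. Of the other 86, 82 kept their sign. The differences of Prickle1, Vangl2, Celsr2 and Dvl1 kept their sign in every refit. The adjusted p values ran from 0.196 to 0.986. Prickle1 lay between 0.75 and 1.73 with other processing and between 1.16 and 1.48 with 1 array left out (adjusted p = 0.196 to 0.687). Leaving out 1 array gave -0.81 to 0.26 for Prickle2 and -0.60 to 0.037 for Celsr1, and averaging all kept probes gave -0.12 for Scrib.

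The number of probes called, 2 with all arrays, was 6 without the detection filter, 17 with array weights, 4 with a trended robust prior, and 0 for probes detected on all 6 arrays, with the slide as a block or with the replicate block. That block leaves each difference as it is by construction, and it gave Prickle1 an adjusted p of 0.532. It was 0 to 2 with 1 array left out. The 2 member genes higher without overlap became 1 with median scaling, and 2 to 4 with 1 array left out, where 0 to 1 were lower. Leaving out an array can only keep or raise these counts, and the share of all genes there is not given. The median member difference was 0.25 with median scaling, 0.021 with no filter (9 genes), -0.12 with kept probes averaged, and 0.24 to 0.60 with 1 array left out. With no filter the differences of the genes measured before did not change, and the median moved because Celsr3 and Dvl2 joined them. The cause of the other shifts was not tested, except that averaging brings in dim and opposing probes.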
